A study of Mus musculus with 6 samples.

Results

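The mRNAs described here encode the protein parts of lipoproteins and the protein that loads lipid onto them: the apolipoprotein genes Apoa1, Apoa4, Apob, Apoc2, Apoc3 and Apoe, the microsomal triglyceride transfer protein gene Mttp, and Clu, which encodes clusterin (apolipoprotein J). The members were the rows of 6 ribosome profiling tables whose Ensembl gene ID carries one of these 8 symbols in GENCODE M39, which named 18424 of the 18437 mRNAs in the tables. Rows were found for 7 of the 8 genes, and all 7 had at least 10 reads in at least 1 library. Apoc2 had no row and was not analysed here. On GRCm39, Apoa1 lies at chr9:46139878-46142212 and Apoa4 at chr9:46151994-46154757 on the plus strand, with Apoc3 between them at chr9:46142527-46146934 on the minus strand. Apob is at chr12:8027648-8066835 and Clu at chr14:66190200-66218999, both on the plus strand, and Apoe at chr7:19430034-19434947 and Mttp at chr3:137795612-137850729, both on the minus strand.

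The study profiled ribosome-protected fragments, the stretches of mRNA that a translating ribosome shields from nuclease, in 6 tissue lysates of WT C57BL/6J mice, 4 weeks old and without treatment, with the labels brain, small intestine, colon, kidney, heart and lung. Each label has 1 library, so no value below has a replicate and no test between tissues was possible. The levels are RPKM, the reads on a coding sequence (CDS) per kilobase of it and scaled to the sum of reads on all coding sequences. Intervals are 95% and exact (Poisson for a level, conditional binomial for a ratio of RPKM), and they cover counting error only, because fragments without molecular identifiers are not independent molecules and differences between animals and preparations are not in them.

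The libraries held between 4504853 and 10635031 reads on coding sequences, with 11520 to 15028 mRNAs read per library. The label of 4 libraries went against their marker genes. The brain-labelled library led for the 6 enterocyte markers (summed 27258 RPKM, Fabp2 alone 24021), the one labelled small intestine for neuronal, astrocyte and oligodendrocyte markers (4488, 2207 and 3010), the one labelled colon for kidney tubule markers (22414), and the one labelled kidney for colon and goblet markers (13272). Heart muscle and lung epithelium markers led in the libraries of those labels (110301 and 86176). Neuronal markers summed to 25.2 RPKM in the brain-labelled library, and kidney tubule markers to 19.2 in the kidney-labelled library. Libraries are therefore named by their label (the brain-labelled library), and a bare tissue name beside a value stands for the library of that label, not for the tissue. One mRNA, Kri1, took 22.1% of the reads of the kidney-labelled library and 14.1% of that labelled small intestine, against 0.400% to 6.79% elsewhere, which lowers the RPKM of all other mRNAs there.

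Absorptive cells of the small intestine and hepatocytes secrete triglyceride in particles built on apolipoprotein B, in which Mttp loads lipid onto the growing apolipoprotein B chain in the endoplasmic reticulum. The intestinal particle, the chylomicron, also carries apolipoproteins A-I, A-IV and the C apolipoproteins. Apolipoprotein E is the ligand through which remnant particles are taken up, and it is made by macrophages and astrocytes as well as by the liver. Clusterin is a secreted chaperone and is abundant in brain astrocytes and several epithelia.

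In the intestine the Apob mRNA is edited by a cytidine deaminase that turns a glutamine codon into a stop codon, so that a shorter protein is made from the same gene. The edited site is shown because it divides the CDS on which the Apob level was computed. On GRCm39 it lies at chr12:8058048-8058072, plus strand, in exon 26 of 29, at codon 2179 of 4505. The reference sequence below has the glutamine codon and the downstream mooring sequence, to which the editing complex binds, in capitals.
Apob editing site: gcgataCAAttTGATCAGTATAtta

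The promoter windows of the 4 members that stood furthest above the other libraries in a single library (values below) are shown because these mRNAs were high together. They come from the RefSeq table on GRCm38.p6, a different build from that of the reads, and run from 250 bases before to 50 after an annotated start, 5′ to 3′ on the strand of the gene. The table held windows for 6 of the 8 members, matched by symbol; Apoc3 and Clu are only named. Capitals mark any match to the TATA box (TATAAA), to the GC box (GGGCGG) or, on either strand like the others, to a form of the site of HNF4, a nuclear receptor of intestine and liver (CAAAGGTCA for the first form and CAAAGTCCA for the other).
Apoa1, chr9:46228380-46228679, plus strand: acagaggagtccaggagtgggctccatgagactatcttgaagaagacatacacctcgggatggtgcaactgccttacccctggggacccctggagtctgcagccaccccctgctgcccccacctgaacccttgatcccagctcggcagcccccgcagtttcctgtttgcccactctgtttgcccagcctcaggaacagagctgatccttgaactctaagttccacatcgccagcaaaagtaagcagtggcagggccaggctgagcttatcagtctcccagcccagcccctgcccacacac
Apoa4, chr9:46240594-46240893, plus strand: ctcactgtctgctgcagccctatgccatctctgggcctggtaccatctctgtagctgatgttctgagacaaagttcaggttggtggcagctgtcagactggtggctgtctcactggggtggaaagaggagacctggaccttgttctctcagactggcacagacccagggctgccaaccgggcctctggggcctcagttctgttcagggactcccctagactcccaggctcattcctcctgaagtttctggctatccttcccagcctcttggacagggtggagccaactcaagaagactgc
Apob, chr12:7977427-7977726, plus strand: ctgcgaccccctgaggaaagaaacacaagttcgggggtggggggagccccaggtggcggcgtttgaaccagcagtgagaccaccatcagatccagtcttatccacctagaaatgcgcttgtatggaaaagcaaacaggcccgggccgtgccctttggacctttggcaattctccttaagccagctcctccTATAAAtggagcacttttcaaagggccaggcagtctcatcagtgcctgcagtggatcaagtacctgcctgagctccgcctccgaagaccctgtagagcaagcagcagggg
Mttp, chr3:138143369-138143668, minus strand: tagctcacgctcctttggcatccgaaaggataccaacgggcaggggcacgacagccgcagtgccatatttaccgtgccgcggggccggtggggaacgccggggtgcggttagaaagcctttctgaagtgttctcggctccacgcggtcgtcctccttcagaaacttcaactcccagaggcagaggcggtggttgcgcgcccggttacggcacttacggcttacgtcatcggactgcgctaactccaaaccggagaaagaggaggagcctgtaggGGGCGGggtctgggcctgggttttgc
The Apob window held TATAAA, as did 13.6% of all 32851 windows in the table, and the Mttp window held GGGCGG, as did 35.7%. The windows of Apoa1 and Apoa4 held none of the 4 motifs. Neither HNF4 form was found as an exact match in any of the 4 windows, and each form occurred in under 1% of all windows (0.478% and 0.475%). Inexact matches and other forms of the HNF4 site were not searched, so the windows may hold such sites.

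Apoa1, Apoa4, Apob, Apoc3 and Mttp were each highest in the brain-labelled library, which carried the enterocyte markers. Their levels there spanned from 253 RPKM for Mttp to 30285 RPKM for Apoa1, the rank 2 mRNA of that library. Whether more cells of a type or more translated mRNA per cell stood behind a level cannot be told apart in tissue lysates, and neither can mRNA abundance and ribosome load from these values alone.

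Apoa1, the main protein of high-density lipoprotein and a surface protein of chylomicrons, had 30285 RPKM (95% interval 30167 to 30402, 255085 reads) in the brain-labelled library, 108 in colon, 15.6 in heart, 159 in kidney, 22.2 in lung and 251 in small intestine. The brain-labelled library stood 120.9-fold (114.9 to 127.2) above the small-intestine-labelled library, the second highest. The other 5 libraries differed among themselves by up to 16.1-fold, and each neighbouring pair in their order differed beyond counting error. The order of the last pair, lung above heart, turned around with median-of-ratios size factors (16.2 and 17.7).

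Apoa4, a triglyceride-responsive surface protein of chylomicrons, followed with 3368 RPKM (42442 reads) in the brain-labelled library, 53.0 in colon, 5.26 in heart, 27.5 in kidney, 3.60 in lung and 57.5 in small intestine. The ratio of the highest to the second highest library was 58.6 (53.7 to 64.0). Small intestine and colon, with a ratio of 1.08 (0.937 to 1.26), did not differ beyond counting error, nor did heart and lung at 1.46 (0.924 to 2.34). With median-of-ratios size factors these pairs lay further apart, at 68.4 and 47.8 RPKM and at 5.98 and 2.63.

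Apob, the structural protein that stays with its particle for life, had 484 RPKM over its long CDS of 13515 nt in the brain-labelled library, from 69567 reads. The other libraries had 18.4 RPKM (kidney), 11.3 (colon), 4.52 (small intestine), 1.90 (lung) and 0.570 (heart, 63 reads). The brain-labelled library was 26.3-fold (25.1 to 27.6) above that labelled kidney, the other library with intestinal markers. Every step in the order of the 6 libraries exceeded counting error. The tables give 1 value per CDS, so reads before and after the edited codon were not separated. Had all reads lain before that codon, which begins after 48.3% of the CDS, the level in the brain-labelled library would be 1001 RPKM.

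Apoc3, an inhibitor of lipoprotein lipase and of remnant uptake, had the smallest ratio of highest to second highest library of the 5. It reached 506 RPKM (2210 reads) in the brain-labelled library, 129 (238 reads) in colon, 47.8 (149 reads) in kidney, 22.0 (69 reads) in small intestine and 0.944 (3 reads) in lung. No read fell on it in the heart-labelled library, where 3 reads would be 0.892 RPKM, so the brain-labelled library was at least 567-fold higher than heart. Over the colon-labelled library, which carried the kidney tubule markers, the ratio was 3.93 (3.44 to 4.52).

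Mttp, the lipid transfer protein without which apolipoprotein B is degraded, had 253 RPKM (7325 reads) in the brain-labelled library, 6.92 in colon, 2.78 in heart, 3.53 in kidney, 2.75 in lung and 17.0 in small intestine. The ratio to the second highest, small intestine, was 14.8 (13.3 to 16.5). Kidney and heart, and heart and lung, with 58 to 73 reads each, did not differ beyond counting error. With median-of-ratios size factors kidney, heart and lung had 4.23, 3.16 and 2.01 RPKM.

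**Figure D1:**
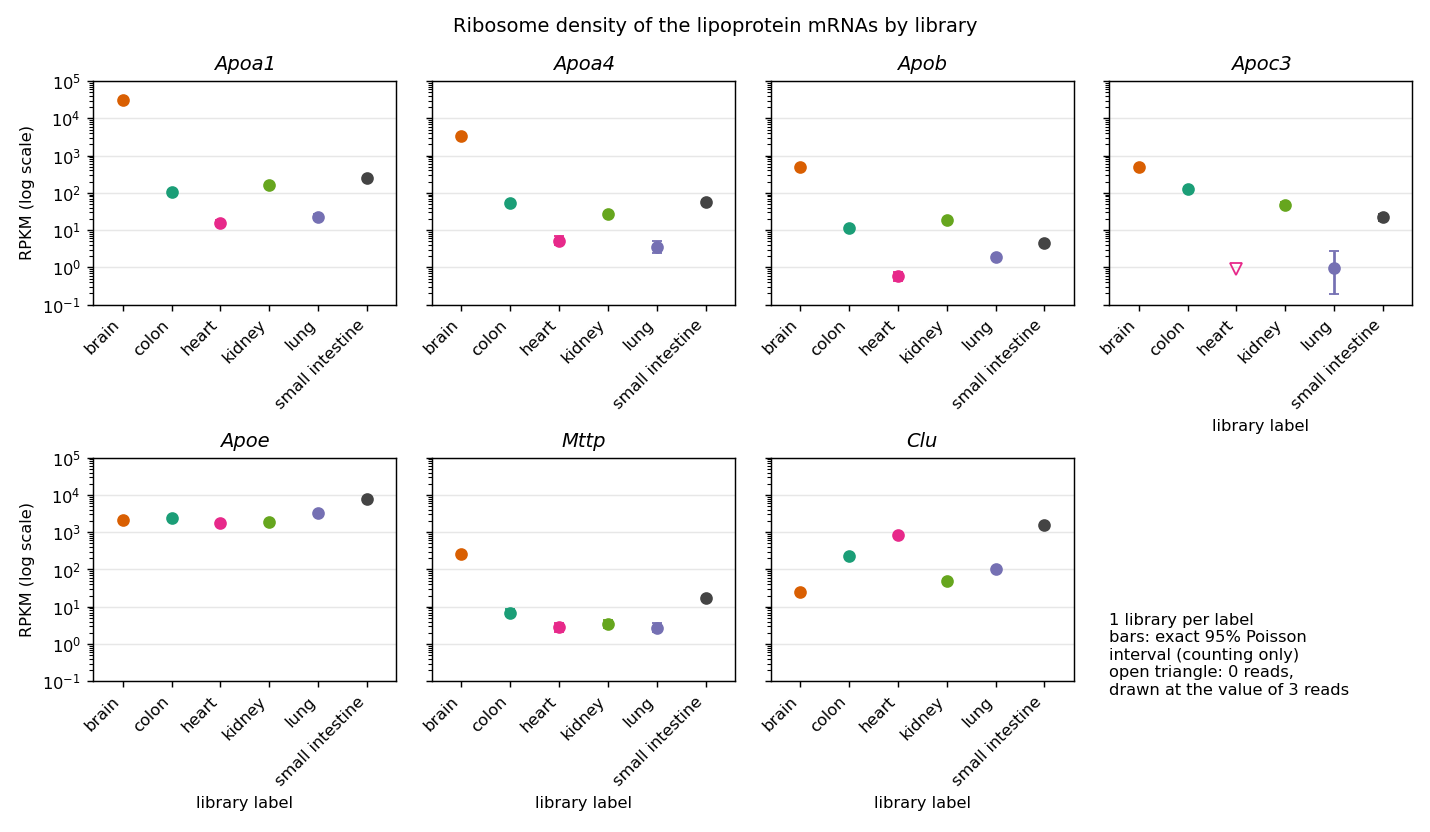
RPKM of the 7 measured members on a log axis, 1 point per library, with exact 95% Poisson intervals for counting error; the open triangle, for a library with 0 reads, is drawn at the RPKM of 3 reads. The brain-labelled library is the highest for Apoa1, Apoa4, Apob, Apoc3 and Mttp, at 253 to 30285 RPKM, while Apoe stays between 1757 and 7959 RPKM in all 6 libraries and Clu is highest in the small-intestine-labelled library.

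An mRNA was counted as past 4-fold where RPKM + 1 in its highest library was at least 4 times that in the second highest. In the brain-labelled library this held for 4 of the 7 members, Apoa1, Apoa4, Apob and Mttp, against 1.68% of the 15202 mRNAs with at least 10 reads in some library (256 mRNAs). At 2-fold it held for 5 of the 7, Apoc3 added, against 4.89% of all, and at 10-fold for the same 4 against 0.612%. At 4-fold, Apoc3 lay just under the line, and Apoe and Clu were not highest in that library. Neither was past 4-fold in the small-intestine-labelled library, where 7.85% of all mRNAs were.

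The libraries labelled brain and kidney both carried intestinal markers, enterocyte markers summing to 27258 and 1376 RPKM and colon and goblet markers to 3897 and 13272. Between these libraries, the ratio of brain to kidney labels was 190.9 (179 to 204) for Apoa1, 122.5 (108 to 139) for Apoa4, 71.5 (56.8 to 91.4) for Mttp and 10.6 (8.96 to 12.6) for Apoc3, beside the 26.3 of Apob. Past 4-fold were 5 of the 7 members, the chylomicron genes, against 7.96% of the 12487 mRNAs tested in that pair, while 12.2% were past 4-fold the other way. Apoe differed by 1.15-fold (1.12 to 1.17), and Clu was 2.06-fold (1.80 to 2.37) higher in the kidney-labelled library. The median log2 difference (RPKM + 1) of the 7 members was 4.64 and that of all mRNAs tested 0.03.

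Reads on the 5 chylomicron genes outside the brain-labelled library were compared with those on the 6 enterocyte markers, each as a percent of its level in the brain-labelled library. In small intestine the medians were alike, 1.71% (0.827 to 6.74) for the 5 members and 1.73% (1.15 to 2.82) for the markers. In heart and lung, the members had medians of 0.118% and 0.187%, and the markers 0.157% and 0.101%. Kidney had a lower median for the members, 1.40% (0.524 to 9.46) against 5.35% (0.435 to 19.7). Colon had a higher one, 2.34% (0.357 to 25.4) against 0.248% (0.0397 to 12.0), with Apoc3 at its upper end. In that library, Apoa1, Apoa4, Apob and Mttp stood at 0.357% to 2.74%.

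The summed hepatocyte markers were highest in the same 2 libraries that came next for Apoc3, in the opposite order. All 9 had reads in the libraries labelled colon and kidney, with sums of 571 and 770 RPKM, of which albumin (Alb) made 375 and 633. Elsewhere the sums were 17.9 to 242 RPKM, with 5 to 7 of the 9 read, and fibrinogen and serpin genes at 0 in some of them. The largest of these, in the brain-labelled library, was mostly Cps1 (196 RPKM), which enterocytes also express. Apoh was also higher there (15.1 RPKM) than in colon (10.1), though not than in kidney (16.8). The part of reads from liver-type mRNA, or from other libraries, in these low levels was not tested.

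**Figure D2:**
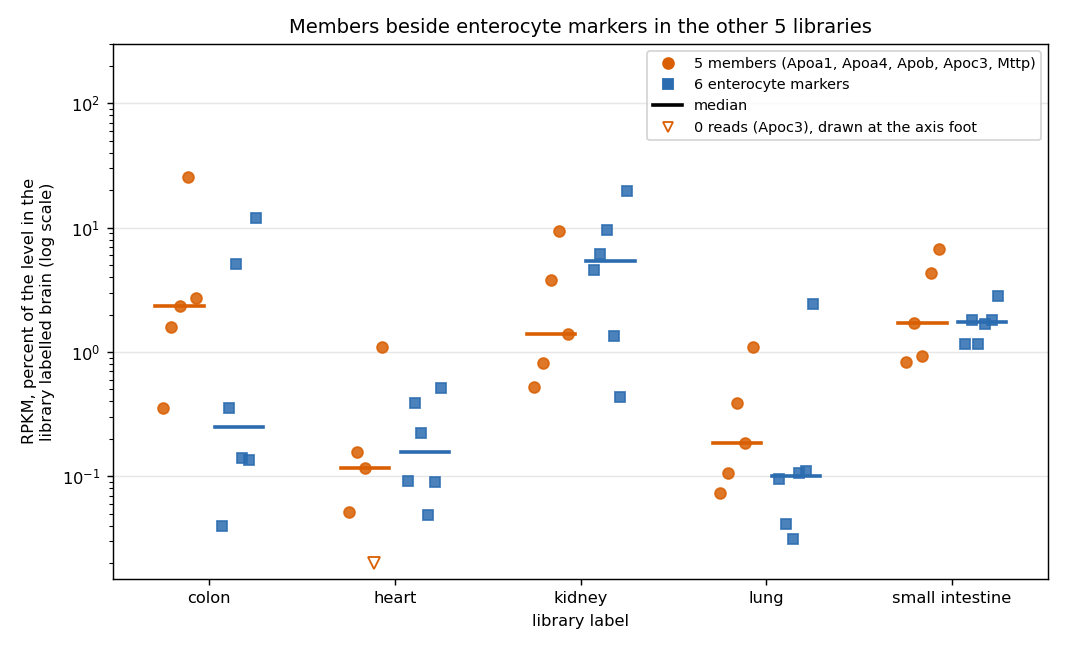
Level of the 5 chylomicron genes and of 6 enterocyte markers in each other library, as a percent of the level in the brain-labelled library on a log axis, 1 point per gene. Horizontal bars are medians: that of the members is above that of the markers for colon (2.34% and 0.248%, with Apoc3 at 25.4%), below it for kidney (1.40% and 5.35%) and level with it for small intestine (1.71% and 1.73%), and the ranges overlap in each library.

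Apoe was read at a high level in all libraries: 2155 RPKM in the brain-labelled library, 2394 in colon, 1757 in heart, 1881 in kidney, 3375 in lung and 7959 (7894 to 8025, 56769 reads) in small intestine, the library with neuronal and glial markers. There it was the rank 4 mRNA, and elsewhere it ranked between 16 and 67. The ratio of small intestine to lung, the second highest, was 2.36 (2.32 to 2.39), or 3.83 with median-of-ratios size factors, and the highest library was 4.53-fold above the lowest. Of all tested mRNAs, 33.8% spanned at most 5-fold over the 6 libraries, and of the 374 with at least 1000 RPKM in some library, a limit chosen after the values of Apoe were seen, 13.4% did. The 4 lowest libraries lay within 1.36-fold of each other, and their order changed with the scaling: with median-of-ratios size factors it ran kidney (2252), colon (2157), brain (2022) and heart (1997).

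Macrophage and microglia markers summed to 244 RPKM in kidney, 188 in brain, 184 in heart, 144 in small intestine, 140 in lung and 64.9 in colon, with C1qa the largest part in each library (32.9 to 144). Csf1r, the growth factor receptor of the list, was highest in small intestine (39.8), with 22.3 to 24.0 in lung, kidney and heart. No other marker of the list was highest in small intestine, the library that led for Apoe. C1qa was highest in kidney (144) and heart (109), above lung (81.1) and small intestine (76.4). C1qb, C1qc and Adgre1 were also highest in kidney, and Cd68 was highest in lung (5.53). Astrocyte markers summed to 2207 RPKM in the small-intestine-labelled library and to 27.3 to 414 elsewhere, where Gfap, the glial filament gene, had no reads. The 414 was almost all Aqp4 (403), a water channel also made outside the brain.

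Clu varied 64.9-fold, more than Apoe. It had 1590 RPKM (16334 reads) in the small-intestine-labelled library, 829 in heart, 230 in colon, 105 in lung, 50.5 in kidney and 24.5 (350 reads) in brain. Each step in this order exceeded counting error, the first being 1.92-fold (1.87 to 1.97) and the largest, heart to colon, 3.60-fold (3.40 to 3.81). The brain-labelled library, highest for the 5 chylomicron genes, was thus the lowest for Clu, and the heart-labelled library was the lowest for Apob and Apoe. Ttr, the thyroxine carrier made by choroid plexus and liver, had 1819 RPKM in the small-intestine-labelled library and 654 in colon. Of the other choroid plexus markers, Folr1 had 0.513 and 90.8 RPKM in these libraries, Kl had 6.67 and 96.1, and Kcne2 had no reads in either.

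The balance among members also moved between libraries. Apoe exceeded Clu 88.0-fold in the brain-labelled library, 10.4-fold in colon, 2.12-fold in heart, 37.2-fold in kidney, 32.2-fold in lung and 5.01-fold in small intestine. Apoa1 exceeded Apoc3 59.9-fold in the brain-labelled library, 11.4-fold in small intestine and 3.32-fold in kidney, with 23.5-fold in lung on 3 Apoc3 reads, and was below it in colon (0.842). Apob and Mttp, the acceptor and the loader of lipid, had a ratio of 1.92 in the brain-labelled library, 1.64 in colon and 5.21 in kidney, and Apob was below Mttp in lung (0.689), small intestine (0.265) and heart (0.205). P4hb, the protein disulfide isomerase that forms the other subunit of the transfer complex and also folds secreted proteins in every tissue, exceeded Mttp 7.04-fold in the brain-labelled library and 17.2-fold to 324-fold elsewhere.

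Summed over the 7 members, the share of all reads was 3.75% in the brain-labelled library, 0.292% in colon, 0.279% in heart, 0.226% in kidney, 0.334% in lung and 0.995% in small intestine. The 5 chylomicron genes made 3.54% of the first and 0.00339% to 0.0436% of the others. Apoe and Clu together made 0.182% to 0.329% in 5 libraries and 0.956% in that labelled small intestine.

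The apolipoprotein genes lie in clusters, and neighbours did not share a profile throughout. On chromosome 9, Apoa1, Apoc3, Apoa4 and Apoa5 span 43.3 kb (GRCm39). The first 3 were highest in the brain-labelled library, and Apoa5, a liver-made activator of lipolysis, was at 2.64 RPKM there and highest at 16.5 in colon, with none in lung. Sik3, Zpr1 and Bud13, which flank them, had 1.28 to 28.9 RPKM throughout.

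On chromosome 7, Apoe, Apoc1, Apoc4 and Apoc2 span 29.4 kb. Apoc1, an inhibitor of lipoprotein uptake, had no reads in the brain-labelled library and 26.1, 6.94, 41.5, 33.8 and 1.98 RPKM in the other 5 (colon, heart, kidney, lung, then small intestine). Apoe was highest in that last library, where Apoc1 was the lowest of the 5 with reads, on 4 reads. Apoc4 had 8.51 RPKM in kidney (24 reads), 0.352 in small intestine (1 read) and no reads elsewhere. Tomm40, the mitochondrial import channel gene beside Apoe, varied from 18.7 to 70.7 RPKM.

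**Figure D3:**
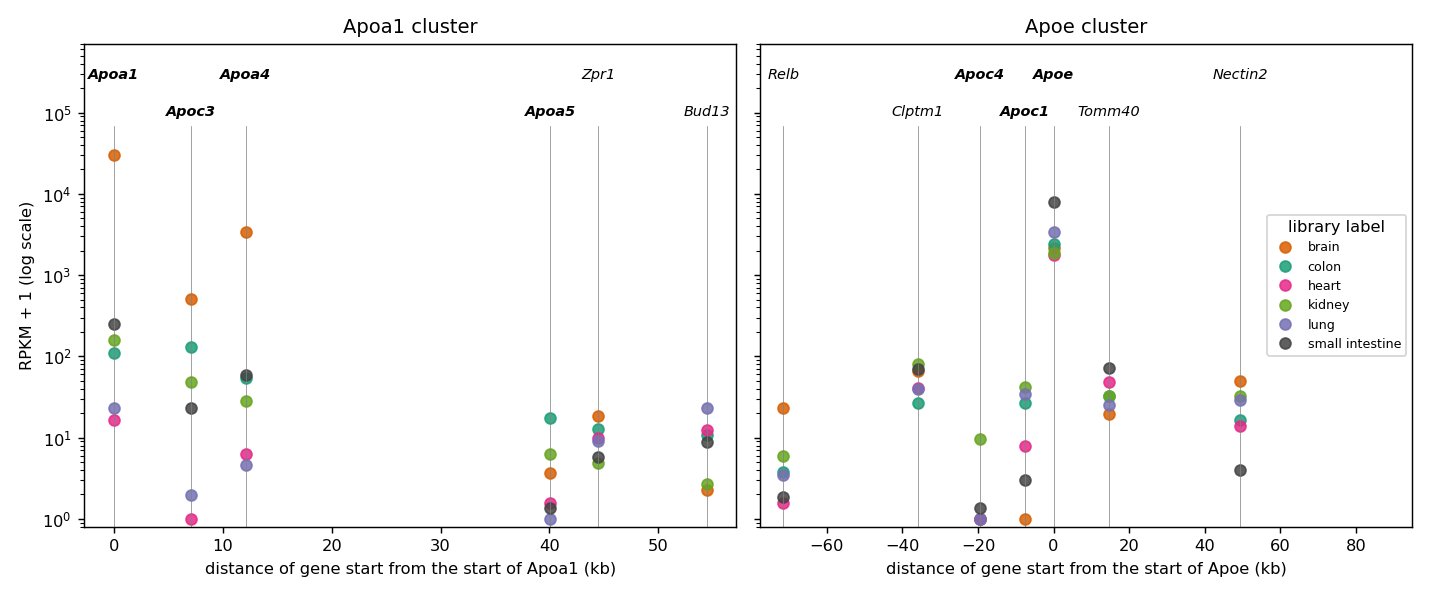
RPKM + 1 on a log axis of the genes of the Apoa1 cluster (left) and the Apoe cluster (right) and their flanks, at the distance in kb of their start from that of Apoa1 or Apoe, with 1 point per library and a vertical line at each gene. Sik3, which starts at -216 kb from Apoa1, is not drawn. Apoa1, Apoa4 and Apoc3 reach 506 to 30285 RPKM in the brain-labelled library while Apoa5 reaches at most 16.5 in any, and Apoe lies between 1757 and 7959 RPKM while Apoc1 and Apoc4 reach at most 41.5 and 8.51.

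The wider pathway was read from a list of 93 genes in 7 roles, all of which passed the minimum of 10 reads. In the brain-labelled library 34 were highest, as were 15.1% of all mRNAs tested, and 14 were past 4-fold, as were 1.68%. The list had 2 past 4-fold in colon (all mRNAs 2.27%), 2 in heart (2.05%), 3 in kidney (0.881%), 4 in lung (3.57%) and 4 in small intestine (7.85%), 29 in all against 18.3% of all mRNAs. The median log2 difference (RPKM + 1) of the brain-labelled library from the median of the other 5 was 0.93 for the list and -0.02 for all mRNAs tested. The list holds genes of intestinal lipid absorption, and Fabp2 is also among the enterocyte markers.

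Of 26 genes of lipid supply and particle assembly, 7 were past 4-fold in the brain-labelled library, beside 1.68% of all mRNAs tested. Fabp2, the intestinal fatty acid binding protein, had 24021 RPKM there and 1095 in kidney. Acsl5, which activates fatty acids to acyl-CoA, had 1097 and at most 206 elsewhere (lung). The enzymes of triglyceride synthesis in enterocytes followed: Mogat2 had 115 RPKM against at most 9.08 elsewhere, and Dgat1 had 139 against at most 6.97. Dgat2, the other enzyme of that last step, was not past 4-fold in any library, with 2.27 to 23.0 RPKM and its highest value in heart. Pla2g12b and Tm6sf2, endoplasmic reticulum proteins needed for fully lipidated particles, had 187 and 13.9 RPKM, and at most 12.8 and 0.346 elsewhere.

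The general secretory genes of the same role were spread over the libraries. Sar1b, the small GTPase of the COPII coat that chylomicron export needs, had 219 RPKM in the brain-labelled library and 74.0 to 195 elsewhere, and Surf4, a cargo receptor, had 204 to 428 with the highest value in heart. Among genes of lipid droplets, Cidec had 634 RPKM in the brain-labelled library and 461 in lung. Fitm2, which acts in droplet formation, was past 4-fold in heart at 54.4. Cd36, a fatty acid transporter, was highest in lung and heart (901 and 667 RPKM) and had 11.4 in the brain-labelled library. Fabp1, the liver fatty acid binding protein that enterocytes share, had 213 RPKM in the brain-labelled library, 125 in colon and 75.5 in kidney.

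Of the 4 genes of Apob editing, none was past 4-fold in any library, beside 18.3% of all mRNAs tested. With only 4 genes, a count of none is not far from that share. Apobec1, the deaminase, had 13.4 RPKM in the brain-labelled library, 20.0 in kidney and 20.2 in lung. Its cofactors A1cf and Rbm47 had 70.3 and 69.2 RPKM in the brain-labelled library, and 66.2 and 60.8 in colon, where Apobec1 had 3.23. In heart, A1cf had no reads and Rbm47 had 0.967 RPKM.

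Sterol transport had 4 of 9 genes past 4-fold in the brain-labelled library, beside 1.68% of all mRNAs tested. Npc1l1, the cholesterol uptake transporter of the brush border, had 142 RPKM against at most 2.85 elsewhere. Abcg5 and Abcg8, the paired exporter of plant sterols, had 63.5 and 19.9 RPKM, and at most 1.81 and 0.392 elsewhere. Soat2, the cholesterol esterifying enzyme of enterocytes and liver, had 36.8 there, and its relative Soat1 had 0.290 there and 24.0 in lung. Abca1, which lipidates apolipoproteins A-I and E, ranged only from 16.9 to 31.5 RPKM over the 6 libraries. Abcg4, a sterol exporter of neurons, had reads in the small-intestine-labelled library alone, at 5.87 RPKM.

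The 11 other apolipoprotein genes had none highest in the brain-labelled library, where 15.1% of all mRNAs tested were highest. Apom, a lipocalin of high-density lipoprotein, had 655 RPKM in the colon-labelled library and 15.3 in kidney. Apod, a glial lipocalin, had 79.8 in small intestine and at most 0.783 elsewhere. Apoa2, the second protein of high-density lipoprotein and made by the liver, had 78.9 in kidney and 18.9 in colon, the libraries with the highest hepatocyte marker sums, and 0.307 (1 read) in the brain-labelled library.

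Of 16 receptor genes, 2 (Cubn and Lsr) were highest in the brain-labelled library, beside 15.1% of all mRNAs tested. Lrp2, the megalin receptor of the proximal tubule and also a member of the kidney tubule markers, had 2731 RPKM in the colon-labelled library, and Cubn, its partner, had 154 there and 269 in the brain-labelled library. Lrp8, the neuronal receptor for apolipoprotein E and reelin, had 19.8 in small intestine, and Sort1, which sorts apolipoprotein B, had 408 there and 233 in kidney.

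Of 11 genes of lipolysis and remodelling, 2 were highest in the brain-labelled library, beside 15.1% of all mRNAs tested. Angptl8, a regulator of lipoprotein lipase, was past 4-fold there at 8.07 RPKM against at most 0.218 elsewhere. Angptl4, an inhibitor of that lipase, had 89.4 there against 35.9 in colon. Lpl, the lipase that draws fatty acids from chylomicrons, had 2131 RPKM in the heart-labelled library and 187 in colon, the second highest. Gpihbp1, its anchor on capillary endothelium, had 173 in lung and 30.9 in heart. Pltp, the phospholipid transfer protein, and Lipg, the endothelial lipase, were also past 4-fold in lung at 265 and 186. Of Lpl, Gpihbp1, Pltp and Lipg, none exceeded 23.6 RPKM in the brain-labelled library.

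Of the 16 transcription factor genes of the list, 2 were past 4-fold in the brain-labelled library, beside 1.68% of all mRNAs tested. Hnf4g had 396 RPKM there and 16.9 in kidney, and Creb3l3, a membrane-bound factor that activates Apoa4, had 116 and 2.84. Hnf4a was spread more evenly, with 134 in the brain-labelled library, 85.4 in colon and 72.4 in kidney, and at most 1.89 in the others. Nr1h4, the bile acid receptor, had a like spread of 96.6, 111 and 54.9. Nr2f1 was past 4-fold in the small-intestine-labelled library (5.92 RPKM), as were 7.85% of all mRNAs tested.

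**Figure D4:**
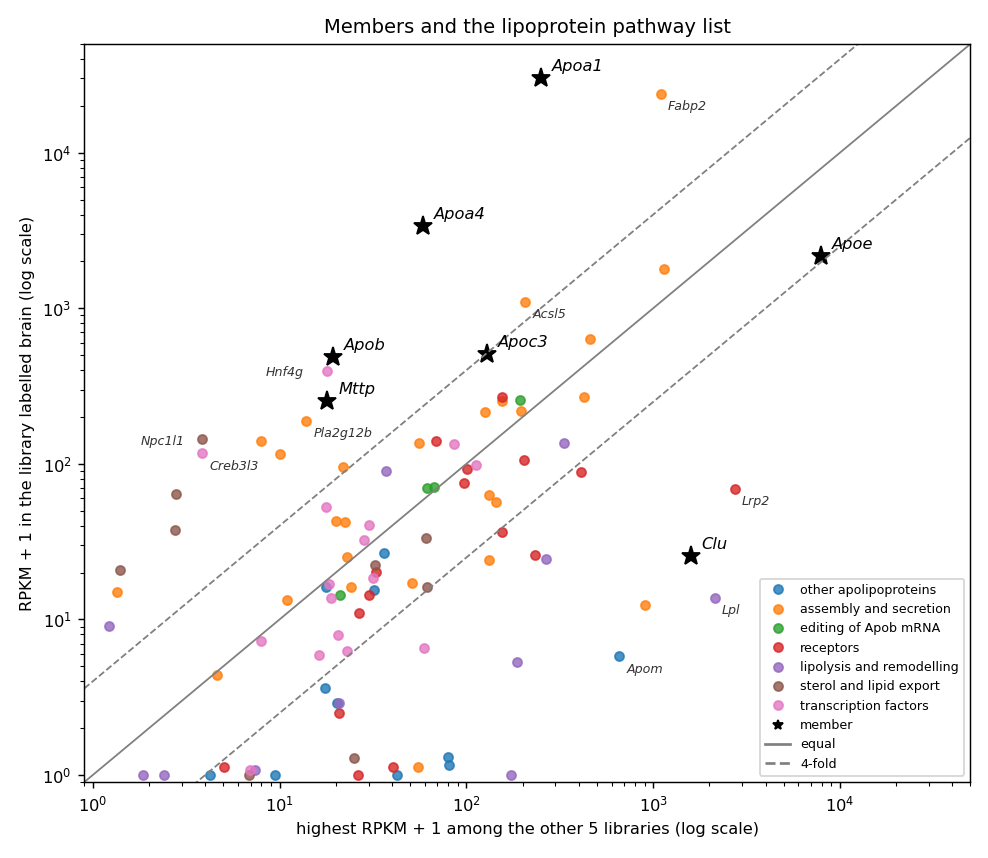
RPKM + 1 in the brain-labelled library against the highest RPKM + 1 among the other 5 libraries, both on log axes, for the 93 pathway genes (points coloured by role) and the 7 members (stars); the solid line marks equal values and the dashed lines 4-fold. Apoa1, Apoa4, Apob and Mttp lie above the upper 4-fold line with 14 pathway genes, Apoc3 lies just under that line, and Apoe and Clu lie below the line of equal values.

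For each member, the 3 mRNAs of highest Pearson's r of log2(RPKM + 1) over the 6 libraries were found. They were taken from 4678 mRNAs with at least 50 RPKM in some library. With 6 points that share library totals, r is a description. By Spearman's rho, 3 of the 21 mRNAs named here were among the nearest 3. Ranks of 6 points tie often. For each member, 5 to 15 mRNAs had a rho of 1, and 6 of the 21 were tied with the top 3. Pearson's r compares the shape of profiles and not the size of their changes. Gna11, nearest to Apoa1, ran from 37.4 to 157 RPKM, and Apoa1 from 15.6 to 30285. Apoa1 and Apoa4 were each other's neighbours (r = 0.986), together with Gna11 (0.991) and the Paneth cell defensin Defa39 (0.986) for Apoa1, and Gsdme (0.972) and Defa30 (0.968) for Apoa4. Apob was nearest to Mxi1 (0.996), Hnf4g (0.992) and Hectd3 (0.989), and Mttp to Defa22 (0.987), Npc1l1 (0.982) and Gimd1 (0.981). Apoc3 was nearest to Bdh1 (0.975), Mep1b (0.971) and Slc13a1 (0.970), the last a sulfate transporter of kidney and intestine. Apoe was nearest to Aatk (0.991), the astrocyte glutamate transporter Slc1a3 (0.990) and Kcnh1 (0.987). Clu was nearest to Psap (0.981), a lysosomal and secreted protein, Crebl2 (0.977) and Syngr1 (0.970).

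The members also differed in codon composition. G or C stood at the third codon position in 78.9% of the codons counted in Apoa4, 74.1% in Apoe, 72.5% in Clu, 70.9% in Apoa1, 62.5% in Apoc3, 55.4% in Mttp and 45.8% in Apob, against a median of 58.9% over 18154 coding sequences. Not every codon was counted: the count took in 380 of 395 codons of Apoa4 and 251 of 264 of Apoa1. Apoa4 lay above 97.0% of all coding sequences and Apob above 17.7%, so the genes high in the brain-labelled library lay on both sides of the median. Their CDS lengths ran from 411 nt for Apoc3 to 13515 nt for Apob.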

How the data were processed

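Ribosome-protected fragments were measured in 6 mouse tissue lysates, 1 library per label. The authors trimmed reads with Cutadapt, aligned them with STAR to GRCm39, removed reads under 15 nt, with more than 2 mismatches or with several map positions, assigned P-sites, and deposited RPKM over the longest CDS per gene of Ensembl release 107; these steps are stated for their macrophage libraries, and the tissue labels name GRCm39, Cutadapt and STAR. RPKM times CDS length gave whole reads (tolerance 0.01) for all values in each library, so reads were recovered for intervals. Reads that map to several near-identical mRNAs were excluded by the authors, which lowers genes with close copies such as the defensins.

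Gene names, coordinates and codons were taken from GENCODE M39 (Ensembl release 116). Calculations used Python 3.11.15, pandas 2.3.3, scipy 1.17.1, numpy 2.4.6 and, for plots, matplotlib 3.10.9. The pseudocount was 1 RPKM and the minimum 10 reads in 1 library; a count of 0 was bounded at 3 reads. No test between libraries was made, since each label has 1 library. The calls were checked on simulated counts. The members and lists were chosen with earlier results of these data known. Named were the members, the pathway genes of highest RPKM (up to 30, and the top 3 of each role), the 3 mRNAs nearest to each member, the cell type markers and Kri1; other pathway genes and cluster neighbours were named after their values were seen. Alternatives were other scalings, thinning to the lowest total, pseudocounts, fold limits, read minimums and rank correlation.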

Additional observations from a re-analysis of the deposited data

How the results depend on the processing

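All 7 members kept their highest library under the 5 other scalings and depths: leaving out Kri1, the 3 mRNAs of most reads or mitochondrially encoded mRNAs, median-of-ratios size factors, and thinning to the lowest total. Across them, the ratio of the highest to the second highest library ranged from 95.4 to 120.8 for Apoa1, 46.2 to 58.5 for Apoa4, 20.1 to 25.9 for Apob, 3.60 to 4.10 for Apoc3, 2.35 to 3.83 for Apoe, 11.7 to 14.8 for Mttp and 1.85 to 2.21 for Clu; of these 35 values 19 left the counting interval and none reversed. Members past the fold in any library numbered 5 with median-of-ratios size factors, where Apoc3 passed. They numbered 6 at 2-fold, where Apoc3 and Apoe passed, and 4 under each other setting tried. Of the 93 pathway genes, 14 were past 4-fold in the brain-labelled library, beside 1.68% of all mRNAs. At 2-fold 19 were (4.89%), and at 10-fold 11 (0.612%). In any library, 29 were past 4-fold, beside 18.3% of all mRNAs. The any-library counts of 43 at 2-fold, 15 at 10-fold and 25 with size factors have no such share here. Without Kri1 in the totals, the summed share was 3.82% in the brain-labelled library, 0.313% in colon, 0.290% in kidney and 1.16% in small intestine; without mitochondrially encoded mRNAs it was 3.82% in brain, 0.299% in colon, 0.294% in heart, 0.234% in kidney and 1.01% in small intestine. By Spearman's rho, 3 of the 21 nearest mRNAs stayed among the nearest 3, and 6 were tied with the top 3. The first count thus rests on how ties were broken, and those names depend on the measure. Some combinations of setting and result were added after seeing the data. Size factors shifted log2 levels by -0.45 (lung) to 0.26 (kidney). Depth limits Apoc3 in heart and lung, with 0 and 3 reads. No paired analysis was possible because each label has 1 library.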
